A study of Mus musculus with 8 samples.

Results

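The wild type (WT) baseline of a Glis3 study was described from 4 of its 8 arrays, those whose titles name PND4 WT testis Thy1+ cells, with no comparison of genotypes. The animals were C57BL/6 pups at postnatal day 4 that stayed with their mothers and received no treatment, and the labels call the isolate spermatogonial progenitor cells. The other 4 arrays are from Glis3KO2 pups and were not used. The design text of the series speaks of 3 WT testes, while the labels list 4 WT samples, and the labels do not say whether a sample was 1 animal or a pool. The spread between the 4 arrays may therefore be technical as well as biological.

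Thy1 is a small surface glycoprotein of spermatogonial stem and progenitor cells, and antibodies against it are used to enrich these cells from the testis. It is also carried by fibroblasts and T lymphocytes. The newborn testis holds germ cells that have just resumed division, Sertoli cells around them, peritubular muscle cells outside the cords, and an interstitium of steroid-producing Leydig cells, fibroblast-like stroma, vessels and macrophages.

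Each value below is log2 of the spot's processed signal minus the array's 75th percentile, so 0 is the signal that 75% of spots do not exceed and 1 unit is a 2-fold step. Of 17728 genes measured, defined by a probe well above background on 2 or more arrays, 16556 (93.4%) were so on all 4. The 75th percentile lay at 355, 533, 243 and 272 signal units on WT replicates 1 to 4, and 86.0% to 90.3% of spots were well above background. Replicates 1 and 3 lay on slide 1 and replicates 2 and 4 on slide 2, and on both slides the first-named array held position 1 and the other position 2. Pearson correlations between arrays over these genes, which are not independent replicates, ranged from 0.915 (replicates 1 and 4) to 0.965 (replicates 3 and 4). The first principal component held 52.9% of the variance, with replicates 1 and 2 at -64.9 and -34.5 and replicates 3 and 4 at 49.9 and 49.5. The second held 31.4% and had replicate 2 at 61.2 and replicate 1 at -45.0, on opposite sides of the other arrays. Position on the slide, overall brightness and this first component moved together over the arrays, and their part in the values below was not tested.

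The values of 7 marker genes were set beside the label. Ddx4, an RNA helicase of all germ cells, stood at 1.80, 2.22, 3.48 and 4.17 on WT replicates 1 to 4. Dazl, a germ cell RNA-binding protein, stood at 3.74, 4.24, 5.45 and 5.90. Both were highest on replicate 4 and lowest on replicate 1, over a 5.16-fold and a 4.47-fold range. Of all genes, 28.6% were highest on replicate 4 and 26.6% lowest on replicate 1. Gfra1, the GDNF co-receptor of stem spermatogonia, was dimmer at -1.33, -1.56, -0.56 and -0.35. All 3 germ cell markers and the somatic markers were well above background on all 4 arrays. So were 93.4% of all genes measured, so passing that filter does not check the label. Sox9, the transcription factor that makes Sertoli cells, stood at 0.71, -0.33, 1.39 and 1.27, with replicate 2 apart below. Col1a1, a chain of type I collagen made by stroma, stood at 3.66, 5.13, 2.62 and 2.89. Acta2, the smooth muscle actin of peritubular cells, stood at 5.01, 5.48, 4.50 and 4.24. Csf1r, the growth factor receptor of macrophages, stood at 2.94, 2.40, 1.26 and 0.77. Replicate 2 was highest for both Col1a1 and Acta2, as for 18.9% of all genes, and replicate 1 for Csf1r, as for 27.6%. Replicates 3 and 4 were the lower pair for all 3 genes, and replicates 1 and 2 were the highest pair for 19.3% of all genes. Averaging all kept probes of a gene in place of taking the brightest put the mean of Acta2 at 1.55 in place of 4.81 and that of Dazl at 3.63 in place of 4.83. In such bulk RNA, fewer cells of a type and less RNA per cell cannot be told apart.

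Thy1 itself stood at 1.55, 2.05, 1.33 and -0.03, and its mean of 1.22 ± 0.89 (SD, n = 4) lay at the 81.0 percentile of all genes measured. It was lowest on replicate 4, the array on which Ddx4 and Dazl were highest, and without that array its SD was 0.37. A second kept probe of Thy1 averaged -0.16. Glis3, the zinc finger factor that the series is about, stood at -1.09, -1.01, 0.57 and 0.60, with replicates 3 and 4 above the other arrays, the highest pair for 30.1% of all genes.

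**Figure D1:**
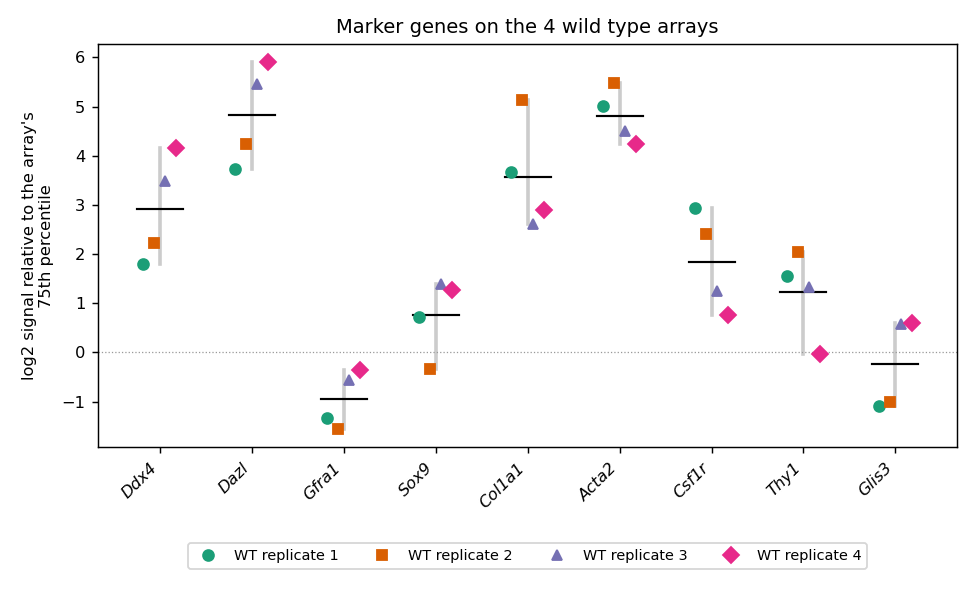
Log2 signal minus the 75th percentile of the array (y axis) for the 7 marker genes, Thy1 and Glis3 (x axis) on the 4 wild type arrays, with 1 symbol per array, a grey bar for the range and a black line for the mean. The germ cell genes Ddx4 and Dazl are lowest on replicate 1 and highest on replicate 4 (1.80 and 4.17 for Ddx4), while Csf1r is highest on replicate 1 (2.94) and lowest on replicate 4 (0.77).

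To describe whose genes were bright in the isolate, 16 lists with 236 genes in all were placed on the brightness scale of all genes. Of these genes 228 had a named probe and 226 were measured. A percentile here ranks a gene's mean probe signal, which depends on the probe and the amplification as well as on the transcript, so it does not order transcript numbers between genes. Among the cell type lists the smooth muscle list had the highest median percentile (87.3, 15 of 15 measured). The stroma and matrix list (82.4, 22 of 23), the Leydig cell list (82.4, 8 of 9), the macrophage list (81.0, 24 of 25) and the pericyte list (80.3, 7 of 7) came next. The germ cell list had a median percentile of 74.9 (19 of 20 measured), the Sertoli list 68.9 (17 of 17), and the lists of differentiating and undifferentiated spermatogonia 61.7 (5 of 6) and 52.7 (20 of 20). Dim lists, below the middle of all genes, were those of lymphocytes (41.2, 16 of 16), erythroid cells (35.1, 9 of 13), duct epithelium and mesothelium (32.6, 10 of 10) and endothelium (30.8, 16 of 16). Among the lists of no cell type, housekeeping genes had a median percentile of 99.0 (11 of 12), immediate early genes 82.7 (12 of 12) and cell cycle genes 82.3 (15 of 15). Above the 90th percentile, which holds 10% of all genes, lay 8 stroma, 6 smooth muscle, 6 macrophage, 3 germ cell, 3 Sertoli, 2 Leydig, 2 erythroid and 1 pericyte members. None of the measured endothelial, lymphocyte, duct and mesothelium, or undifferentiated and differentiating spermatogonial members did.

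**Figure D2:**
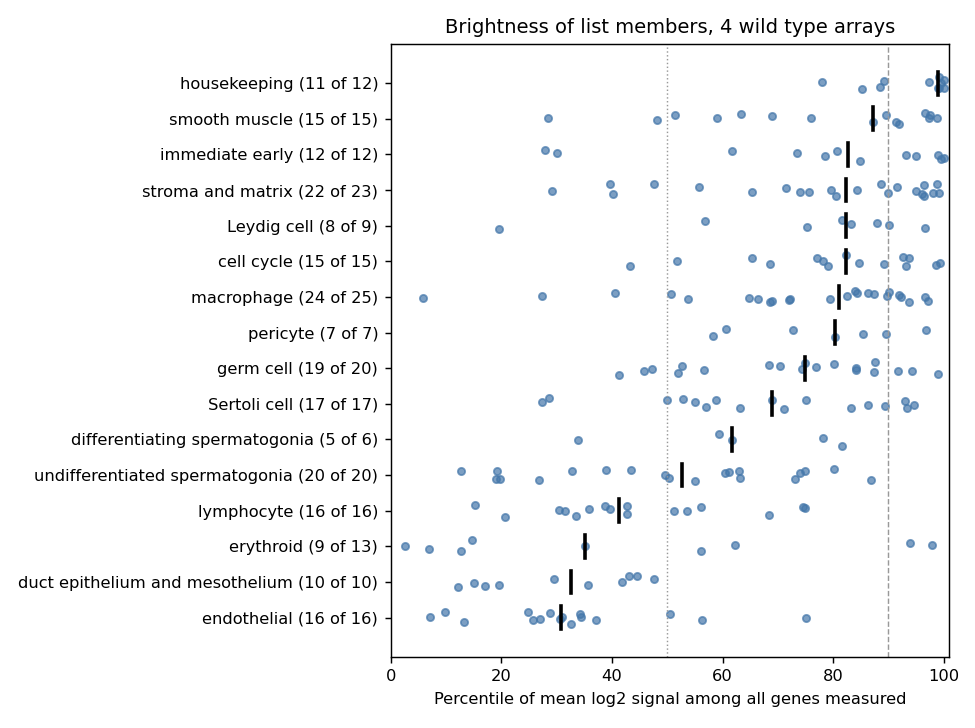
Percentile of the mean log2 signal among all genes measured (x axis) for each measured member of the 16 lists (y axis, with members measured of members listed); points are genes, offset vertically for display, and black bars are list medians. The dotted line marks the 50th and the dashed line the 90th percentile; smooth muscle has a median of 87.3, germ cells 74.9 and endothelium 30.8.

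Germ cell genes varied together over the arrays. The germ cell list, whose genes serve germ cells at many stages, had a centred mean, the mean over members of the signal minus the gene's own mean, of -1.003, -0.61, 0.52 and 1.09 on replicates 1 to 4, a 4.25-fold range. Of its 19 measured members, 18 were highest on replicate 4 and 18 had replicates 3 and 4 as the highest pair, where 28.6% and 30.1% of all genes did. Replicate 1 was lowest for 14 members and replicate 2 for 5, against 26.6% and 35.7% of all genes, and 0 had replicates 2 and 3 as the highest pair, against 7.8%. An SD over 1 was found for 11 of them, against 8.18% of all genes, and the list's median SD was 1.01, against 0.43 over all genes. The brightest member after Dazl and Ddx4 was Taf7l, an X-linked TFIID subunit of male germ cells, at 1.44, 1.82, 2.83 and 3.71. The 3 largest SDs of the list were those of Tdrd5, Tex14 and Asz1. Tdrd5, a tudor domain protein of the piRNA pathway, stood at -2.56, -1.27, 0.23 and 0.60, an 8.97-fold range. Tex14, the intercellular bridge protein that keeps dividing germ cells joined, stood at -3.06, -2.22, -0.34 and -0.22. Asz1, a protein of mitochondrial germ granules, stood at -2.86, -1.71, 0.06 and -0.26. All 3 were lowest on replicate 1 and had replicates 3 and 4 above both other arrays. Pld6, a mitochondrial enzyme of piRNA biogenesis, varied least, at 0.63, 1.205, 1.07 and 1.72 (SD 0.45). Tex19.1, a germ cell factor that restrains transposons, was among the 12 brightest genes of the isolate at 6.39, 6.35, 7.57 and 7.91.

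The RefSeq promoter windows of the germ cell members (250 bases before to 50 after the annotated start, GRCm38.p6) were searched for CACGTG, the palindromic E-box, on both strands. Windows were found for 16 of 20 members, all but Piwil2, Tex15, Dnd1 and Rnf17, and 10 of the 16 held a match in at least 1 window, while 8.09% of all 27025 genes in the table did. The genes with a match were Ddx4, Hormad1, Mael, Mov10l1, Pld6, Slc25a31, Stk31, Taf7l, Tdrd1 and Tdrd9. The 3 members of largest SD, Tdrd5, Tex14 and Asz1, had no match, while Pld6, the member of smallest SD, had 1. A match is a description of letters and shows no binding. For Ddx4 (chr13:112652261-112652560, minus strand) it begins 29 bases and for Taf7l (chrX:134476441-134476740, minus strand) 49 bases before the start, and Dazl (chr17:50293571-50293870, minus strand) has none. The 3 windows are shown because these were the brightest members of the list, with the E-box in capitals.
Ddx4: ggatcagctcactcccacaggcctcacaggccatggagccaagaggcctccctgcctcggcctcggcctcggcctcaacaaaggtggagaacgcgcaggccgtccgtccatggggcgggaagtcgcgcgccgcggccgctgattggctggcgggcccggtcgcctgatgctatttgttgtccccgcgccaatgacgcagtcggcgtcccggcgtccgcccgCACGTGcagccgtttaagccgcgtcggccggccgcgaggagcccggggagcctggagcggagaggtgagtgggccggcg
Taf7l: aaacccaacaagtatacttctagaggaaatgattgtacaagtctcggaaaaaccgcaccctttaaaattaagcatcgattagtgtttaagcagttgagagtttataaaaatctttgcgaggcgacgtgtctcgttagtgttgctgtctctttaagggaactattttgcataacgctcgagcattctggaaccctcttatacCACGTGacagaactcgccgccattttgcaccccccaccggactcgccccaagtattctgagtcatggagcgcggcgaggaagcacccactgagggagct
Dazl: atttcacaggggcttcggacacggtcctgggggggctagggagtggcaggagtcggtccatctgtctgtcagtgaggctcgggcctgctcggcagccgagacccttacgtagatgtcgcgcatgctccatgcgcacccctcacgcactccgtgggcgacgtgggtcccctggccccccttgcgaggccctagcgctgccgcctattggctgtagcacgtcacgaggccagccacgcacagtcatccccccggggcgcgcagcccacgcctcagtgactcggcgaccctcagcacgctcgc

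Genes of undifferentiated spermatogonia, the cells that hold the stem cells of the testis, spanned the brightness scale and varied less. Their centred means were -0.55, -0.38, 0.46 and 0.47, and 15 of 20 members had replicates 3 and 4 as the highest pair, against 30.1% of all genes. Foxo1, a transcription factor needed for stem cell maintenance, was the brightest at 1.08, 1.35, 2.37 and 2.40. Bcl6b, a repressor induced by GDNF, came next at 1.19, 0.30, 1.68 and 1.43, and then Id4, an inhibitor of differentiation, at -0.24, 0.31, 1.55 and 1.32. Replicates 3 and 4 were above the other arrays for all 3 genes. Pou5f1, a pluripotency factor kept in early spermatogonia, stood at -0.03, -0.01, 0.82 and 1.65. Etv5, a GDNF target, stood at -0.65, -1.001, 0.77 and 0.66. The dim members Lin28a and Ret ranged widely. Lin28a, an RNA-binding protein of progenitors, stood at -4.49, -2.91, -1.29 and -0.95, an 11.7-fold range, and was well above background on all 4 arrays. Ret, the signalling receptor for GDNF, stood at -5.35, -3.03, -1.89 and -1.60 and was not well above background on 1 of the 4 arrays. Utf1 and Lhx1, chromatin and transcription factors of the same cells, had SDs of only 0.19 and 0.26, around means of 0.66 and -0.06. Both were below the SD of 0.41 that is the median of genes above background on all 4 arrays. Of the differentiation genes, Stra8, the retinoic acid target that precedes meiosis, stood at 0.55, 0.31, 1.27 and 1.83. Dnmt3b, a DNA methyltransferase, stood at 1.82, 0.10, 1.35 and 1.80, with replicate 2 lowest for both genes. Rhox13, an X-linked homeobox gene of germ cells, was dimmer at -2.98, -2.55, -1.23 and -1.03, with replicates 3 and 4 above the other arrays. The list's centred means were -0.26, -0.70, 0.29 and 0.67, and 0 of its 5 measured members had an SD over 1, against 8.18% of all genes. Of these members 4 had replicates 3 and 4 as the highest pair, against 30.1% of all genes.

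Sertoli cell genes leaned the same way as germ cell genes, with centred means of -0.32, -0.56, 0.45 and 0.42 and 12 of 17 members with replicates 3 and 4 as the highest pair, against 30.1% of all genes. Clu, the secreted chaperone clusterin, was among the brightest, at 3.26, 1.98, 3.52 and 2.32, with replicates 1 and 3 as the higher pair. Amh, the hormone that removes the Müllerian ducts, stood at 1.58, 1.55, 1.99 and 1.80, an SD of 0.21, and Trf, the transferrin gene, had an SD of 0.12, so that both varied less than most genes. Aard, a gene of the fetal Sertoli cell, stood at 1.45, 2.54, 4.12 and 3.97. Inhbb, an activin and inhibin subunit, stood at 1.30, 0.93, 3.39 and 2.77. For both, replicates 3 and 4 lay above the other arrays by over 1 unit. Sox8, a relative of Sox9, stood at -2.49, -1.64, 0.47 and -0.01. Dhh, the Hedgehog ligand that Sertoli cells send to the interstitium, stood at -1.71, -1.30, 0.68 and -0.01. Cst9, a cystatin of Sertoli cells, stood at -1.79, -2.004, 0.14 and 0.71. All 3 had replicates 3 and 4 above the other arrays. Ptgds, a prostaglandin D synthase of Sertoli cells and other tissues, went against its list, at 3.82, -1.30, -0.92 and -0.33. It was high on replicate 1 alone, and without that array its SD was 0.49 in place of 2.37.

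Leydig cell genes shared 1 order of arrays. All 8 measured members were highest on replicate 1 and lowest on replicate 4, where 27.6% and 18.5% of all genes were, and replicates 1 and 3 were the highest pair for all 8, against 17.2% of all genes, so the arrays of slide 1 were the higher ones. The centred means were 1.24, -0.44, 0.33 and -1.13, a 5.18-fold range. Hsd3b1, which makes the first delta-4 steroids, was the brightest, at 5.35, 3.30, 4.05 and 2.03. Cyp11a1, the side-chain cleavage enzyme that starts steroid synthesis, stood at 2.86, 0.58, 2.24 and -0.59, an 11.0-fold range. Star, which brings cholesterol into mitochondria, stood at 2.93, 1.51, 2.10 and 1.13. Cyp17a1, an enzyme on the way to androgens, stood at 3.26, 2.12, 2.56 and 0.92. For each of these 4 genes replicate 3 lay above replicate 2. Lhcgr, the luteinizing hormone receptor, was dim at -1.04, -3.53, -2.39 and -4.74 and well above background on 3 of the 4 arrays. Insl3 had no named probe and was not analysed here.

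Stroma and muscle genes were bright and were highest on replicate 2. In the stroma and matrix list 22 of 22 measured members were highest there, and in the smooth muscle list 14 of 15, against 18.9% of all genes. Replicates 1 and 2 were the highest pair for 17 and 12 members, against 19.3% of all genes. Centred means were -0.01, 1.27, -0.55 and -0.70 for stroma and 0.28, 1.06, -0.62 and -0.72 for smooth muscle. Nr2f2, a nuclear receptor of interstitial progenitors, was the brightest stromal member, at 5.66, 6.10, 4.21 and 4.15, so that replicates 1 and 2 lay above replicates 3 and 4. Col1a2, the partner chain of type I collagen, stood at 4.70, 6.18, 4.30 and 4.09. Eln, the elastin gene, stood at 1.32, 4.35, 0.78 and 1.62. Dcn, the matrix proteoglycan decorin, stood at 0.85, 3.21, -0.14 and 0.53. Both were higher on replicate 2 than on any other array, and without it the SD of Eln was 0.42 in place of 1.59 and that of Dcn 0.51 in place of 1.46. Sparc and Fn1, widely made matrix glycoproteins, varied less, with SDs of 0.63 and 0.34. Without replicate 2 the median SD of the stroma list was 0.46 in place of 0.999, and that of the smooth muscle list 0.53 in place of 1.0003. Myh11, the smooth muscle myosin heavy chain, stood at 4.605, 4.74, 2.86 and 2.46, so that replicates 1 and 2 were close to each other and well above replicates 3 and 4. Cald1, the actin-binding caldesmon, had the same order at 4.71, 4.96, 3.30 and 2.89. Tpm2, a tropomyosin, stood at 2.95, 3.91, 1.14 and 1.57. Myocd, the coactivator that drives smooth muscle genes, was dimmer at 0.17, 1.10, -1.501 and -1.05, and Des, the muscle intermediate filament, stood at -1.51, 0.76, -0.95 and -1.63, high on replicate 2 alone.

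The CArG box, the site that serum response factor and myocardin use in smooth muscle genes, was searched in the promoter windows of the same build in its strict form on both strands, C at 2 positions, A or T at the next 6 and G at the last 2. Forms that depart from it by a base were not searched, so a window without a match may hold such a form. The strict form was found in 1 of the 11 smooth muscle members with a window, Myl9, and in 1.81% of all genes in the table. Myl9, a regulatory light chain of myosin, stood at 2.70, 3.36, 1.45 and 1.07, in the order of its list. Its window (chr2:156775214-156775513, plus strand) is shown with the match in capitals, which begins 161 bases before the start, as the one muscle window that held the strict form.
Myl9: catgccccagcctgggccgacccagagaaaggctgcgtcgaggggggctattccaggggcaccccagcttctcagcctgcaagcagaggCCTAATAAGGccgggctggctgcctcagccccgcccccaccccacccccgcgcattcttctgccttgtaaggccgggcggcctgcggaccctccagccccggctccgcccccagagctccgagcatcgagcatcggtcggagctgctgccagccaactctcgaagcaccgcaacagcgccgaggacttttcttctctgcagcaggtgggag

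Pericyte and endothelial genes, which mark vessels, differed from each other in brightness. Pericyte centred means were 0.46, 0.30, 0.02 and -0.78, and replicates 1 and 2 were the highest pair for 4 of 7 members, against 19.3% of all genes. Abcc9, a potassium channel subunit of mural cells, stood at 2.57, 3.02, 1.91 and 0.99, and its partner channel Kcnj8 at 0.34, 0.59, -0.83 and -1.56. Rgs5, a regulator of G-protein signalling in the same cells, stood at 2.13, 2.13, 1.14 and 1.19. Mcam, an adhesion molecule found on other cells too, was higher on replicates 3 and 4, at 3.12, 2.91, 4.54 and 4.19. Most endothelial members were dim, and Cdh5, the vascular cadherin, was the brightest at 1.54, 1.04, 0.29 and 0.17, though a second kept probe of it averaged -1.66. Pecam1, an adhesion molecule of endothelium, stood at -2.02, -2.41, -3.25 and -2.54. Tek, the angiopoietin receptor, varied most, at -2.23, -5.14, -4.13 and -3.60. Replicate 1 was highest for 11 of 16 endothelial members, against 27.6% of all genes, and their centred means were 0.66, -0.23, -0.32 and -0.11.

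Macrophage genes were bright and highest on replicates 1 and 2. Replicates 1 and 2 were the highest pair for 20 of 24 measured members, against 19.3% of all genes, and replicate 4 was lowest for 17, against 18.5%. The centred means were 0.81, 0.50, -0.61 and -0.71. Tyrobp, an adaptor of myeloid receptors, stood at 4.75, 4.53, 3.005 and 2.95. Ctss, the protease cathepsin S, stood at 4.53, 4.26, 2.69 and 2.92. Aif1, a cytoskeletal protein of macrophages and microglia, stood at 2.69, 1.87, 0.03 and 0.81. H2-Aa, an MHC class II chain, stood at 1.29, 0.82, -1.04 and -0.48. For these 4 genes neither of replicates 3 and 4 reached either of replicates 1 and 2. C1qb and Cd68, a complement chain and a lysosomal marker, varied less, with SDs of 0.46 and 0.48. Cd163, a scavenger receptor of tissue macrophages, had the largest SD of the list, at -3.83, -2.42, -6.81 and -3.70, and was well above background on 3 arrays. Itgam, the myeloid integrin CD11b, stood at 0.06, 0.68, -2.12 and -1.30, but a second kept probe of the gene was lowest on the array where this one was highest. Ptprc, the CD45 phosphatase of all white blood cells, stood at 3.30, 3.36, 1.91 and 1.39, and was well above background on all 4 arrays.

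Lymphocyte genes were dimmer, with centred means of 0.35, 0.38, -0.29 and -0.44. Il7r, the interleukin 7 receptor, stood at 2.40, 1.23, -0.04 and -0.64, and a second kept probe of it averaged -1.67. Cd3e, a T cell receptor chain, stood at 0.51, 0.97, -0.08 and -0.25. Ltb, the lymphotoxin beta chain, stood at 1.93, 0.49, 1.48 and -1.05, with replicates 1 and 3 as its higher pair. Replicates 1 and 2 were the highest pair for 10 of 16 members, Il7r and Cd3e among them, and replicates 1 and 3 for 4, against 19.3% and 17.2% of all genes. Cd3d, another chain of that receptor, was apart on replicate 2, at -1.93, 0.12, -3.57 and -1.86. The erythroid list had centred means of 0.86, -0.14, -0.29 and -0.43, and its haemoglobin genes stood apart from the rest. Hbb-bt, an adult beta globin, stood at 6.75, 4.45, 2.85 and 2.44, a 19.9-fold range. Hba-a1, an alpha globin, stood at 4.68, 3.62, 1.51 and 1.65, both highest on replicate 1. Each has a near-identical copy whose transcripts the probe may share. Gata1, the erythroid transcription factor, was dim at -3.08, -3.76, -3.24 and -3.26. Genes of ducts and mesothelium, the covering of the organ, were dim, and their centred mean on replicate 2 was 1.17, against -0.28, -0.83 and -0.06 on replicates 1, 3 and 4. Upk3b, a uroplakin of mesothelium, stood at -3.87, 0.53, -3.74 and -1.83. Upk1b, another uroplakin, stood at -4.53, -0.31, -3.86 and -3.04, with replicate 2 highest in both. Msln, the mesothelial surface protein mesothelin, had the same array highest, at -4.63, -0.39, -4.82 and -2.70, and was well above background on 3 arrays. Replicate 2 was highest for 5 of 10 members of the list, against 18.9% of all genes. Replicates 2 and 4, the arrays of slide 2, were the highest pair for 4 members, against 12.2% of all genes. Other members did not share 1 order. Pax2 and Emx2, transcription factors of the urogenital ducts, were lowest on replicate 2, as were 35.7% of all genes. Pax2 stood at -1.27, -1.74, -1.21 and -1.498 and Emx2 at -0.92, -1.59, -1.38 and -1.502. Krt7, a keratin of simple epithelia, was highest on replicate 1, as were 27.6% of all genes, at -0.09, -0.18, -1.85 and -2.15. Krt19, another keratin, was highest on replicate 2, at -1.13, 0.02, -2.28 and -1.65.

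Most proliferation genes were bright, and their spread was close to that of all genes. Mki67, the nuclear antigen of cycling cells, stood at 4.36, 4.54, 4.71 and 4.83. Birc5, survivin, stood at 5.34, 5.13, 5.33 and 5.48. The list's median SD was 0.44, against 0.43 over all genes, and 0 of 15 members had an SD over 1, against 8.18% of all genes. Its centred means were -0.48, -0.15, 0.26 and 0.37, and replicate 1 was lowest for 12 members, against 26.6% of all genes. Replicates 3 and 4 were the highest pair for 12 of 15, against 30.1% of all genes, as in most germ cell genes. Housekeeping genes had a median SD of 0.20 over 11 members, with Actb at 7.81, 7.54, 7.52 and 7.23 and Hsp90ab1 at 7.03, 6.94, 7.01 and 7.29. Ccnb1, the mitotic cyclin B1, varied most of the cell cycle members, at -0.44, 0.90, 1.40 and 1.80, a 4.71-fold range. Hprt, a purine salvage enzyme, had the largest SD of the housekeeping members, at 3.44, 1.64, 1.44 and 1.49, high on replicate 1 alone, and its SD without that array was 0.11 in place of 0.96. With another background correction (normexp) the housekeeping median SD was 0.39.

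Immediate early genes, which respond within minutes to growth factors and to tissue dissociation, followed another order. Fos stood at 0.66, 3.10, -0.89 and 1.89. Its relative Fosb stood at 1.72, 4.11, 1.64 and 3.44. Egr1, a zinc finger factor, stood at 3.91, 5.77, 4.39 and 5.22. In each of these transcription factor genes replicates 2 and 4 lay above replicates 1 and 3, so the arrays of slide 2 were the higher ones. That pair was the highest for 7 of 12 members, against 12.2% of all genes. The list's centred means were -0.41, 0.86, -0.58 and 0.12. Junb, an AP-1 partner and among the brightest probes of the isolate, did not share this order at 8.51, 8.05, 9.001 and 8.95, and its second kept probe averaged -0.11.

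**Figure D3:**
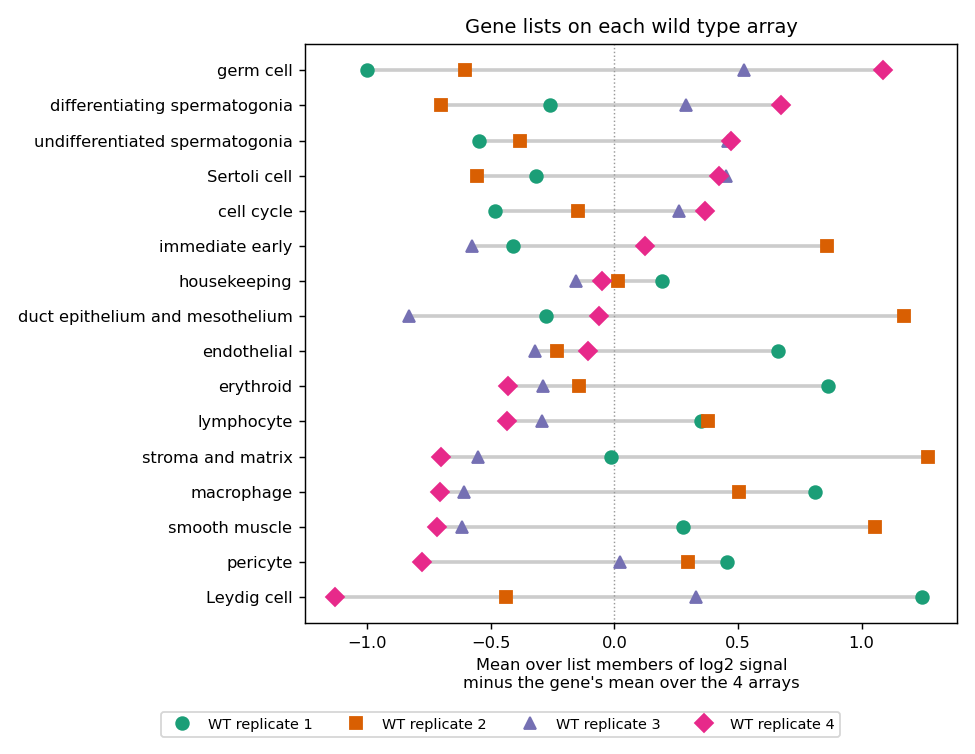
Mean over each list's measured members of the log2 signal minus the gene's mean over the 4 arrays (x axis), for 16 lists (y axis), with 1 symbol per wild type array and a grey bar for the range. The germ cell list lies between -1.003 on replicate 1 and 1.09 on replicate 4 and the Leydig list between 1.24 on replicate 1 and -1.13 on replicate 4, while housekeeping genes stay within 0.35 units.

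How much a list varied was set against the median SD of 0.43 and the 8.18% of genes with an SD over 1 among all genes. Above both lay the lists of ducts and mesothelium (median SD 1.03, 5 of 10 members over 1), germ cells (1.01, 11 of 19), stroma (0.999, 11 of 22), smooth muscle (1.0003, 8 of 15), macrophages (0.92, 7 of 24) and Leydig cells (0.90, 3 of 8). Also above both were Sertoli cells (0.78, 6 of 17), immediate early genes (0.76, 3 of 12) and erythroid cells (0.69, 3 of 9). So were endothelium (0.57, 3 of 16) and lymphocytes (0.50, 4 of 16). Pericytes (0.84, 1 of 7) and undifferentiated spermatogonia (0.64, 2 of 20) were above the median SD, but their counts over 1 were near the 8.18% of all genes. The spermatogonial members over 1 were Lin28a and Ret, and Ret was not well above background on every array. Differentiating spermatogonia had a median SD of 0.69 with no member over 1, and cell cycle and housekeeping genes (0.44 and 0.20) had none either. In lists so short, no member over 1 is near the 8.18% of all genes.

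The orders were looked at within each slide, since a slide holds 1 array at each position. The germ cell list differed between position 2 and position 1 by 1.53 on slide 1 and by 1.69 on slide 2, and the undifferentiated spermatogonia list by 1.01 on slide 1 and by 0.86 on slide 2. The stroma list differed by -0.54 on slide 1 and by -1.97 on slide 2, the smooth muscle list by -0.90 on slide 1 and by -1.77 on slide 2, and the macrophage list by -1.42 on slide 1 and by -1.21 on slide 2. Each of these 5 lists kept its sign on both slides, and so did the Leydig list, by -0.91 on slide 1 and by -0.69 on slide 2. The endothelial list did not, differing by -0.98 on slide 1 and by 0.13 on slide 2. Position on the slide and the pairs of replicates (1 and 2, 3 and 4) cannot be told apart. Of the 16 lists, 15 kept their sign, so keeping it does not set a list apart. Position 2 was higher on both slides for 5 lists, those of germ cells, undifferentiated and differentiating spermatogonia, Sertoli cells and the cell cycle, and lower for 10, housekeeping genes included. With 4 arrays no correlation between lists was computed.

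Whether the slide set the values was tested across all genes with limma, slide 2 minus slide 1, with 2 arrays on each. Of 17728 genes, 0% (0) passed an adjusted p of 0.05 (Benjamini-Hochberg), and the smallest adjusted p was 0.9999. Without adjustment, 471 genes (2.66%) had a p under 0.05, of which 252 were higher and 219 lower on slide 2. Among list members, Fosb differed by 2.10 (SE 0.41) and Fos by 2.61 (SE 0.70), while Cyp11a1 differed by -2.56 (SE 0.54) and Hsd3b1 by -2.04 (SE 0.66). Of the duct and mesothelium list, Lrrn4 differed by 3.26 (SE 0.67), Msln by 3.18 (SE 0.79) and Upk3b by 3.15 (SE 0.80). None of these members passed, and Lrrn4 and Msln were not well above background on 1 array. With position on the slide as a block, an alternative added after the data were seen that leaves 1 residual degree of freedom, 0% passed, the smallest adjusted p from limma was 0.64, and 1144 genes (6.45%) had an unadjusted p under 0.05. Slide 2 minus slide 1 was -2.28 at position 1 and -2.83 at position 2 for Cyp11a1, and 2.39 and 1.80 for Fosb. A p that misses the threshold in so small a design does not show that the slides were alike. Irak3, a brake on interleukin 1 receptor signalling, had one of the smallest p-values, at -0.77, -2.67, -0.58 and -3.61, a difference of -2.46 (SE 0.46). Arxes1, an adipocyte gene, had another, at -4.13, -1.45, -4.40 and -1.85, a difference of 2.62 (SE 0.38). Both genes were picked for a small p, so the lack of overlap between their slides follows from that choice. The arrays of slide 1 were the highest pair for 17.2% of all genes and those of slide 2 for 12.2%. The count was 52 without replicate 1 and 312 without replicate 3, where slide 1 has a single array whose spread is taken to be that of slide 2, and it was 0 without replicate 2 or replicate 4.

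Over all genes, the brightest named probe was that of Lars2, a mitochondrial leucyl-tRNA synthetase, at 9.73, 9.30, 10.41 and 10.07. Malat1, an abundant nuclear RNA, stood at 9.38, 8.90, 9.10 and 8.97. Others among the 12 brightest were Dcaf12l2, Junb, Samd10, Eva1b, Mcts1, Actb, Hsp90ab1, Ddx5, Tex19.1 and Rhot2, with means from 7.05 to 8.91. Another kept probe of the same gene averaged -5.38 for Dcaf12l2, 0.79 for Eva1b and 1.49 for Rhot2. The spread between arrays was a little smaller for bright genes, with a median SD of 0.46 between the 30th and 40th percentile and 0.34 above the 90th. Szrd1 had the smallest SD of all named genes, at 0.41, 0.44, 0.42 and 0.42. Ube2d3, a ubiquitin-conjugating enzyme, stood at 4.15, 4.16, 4.18 and 4.21.

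**Figure D4:**
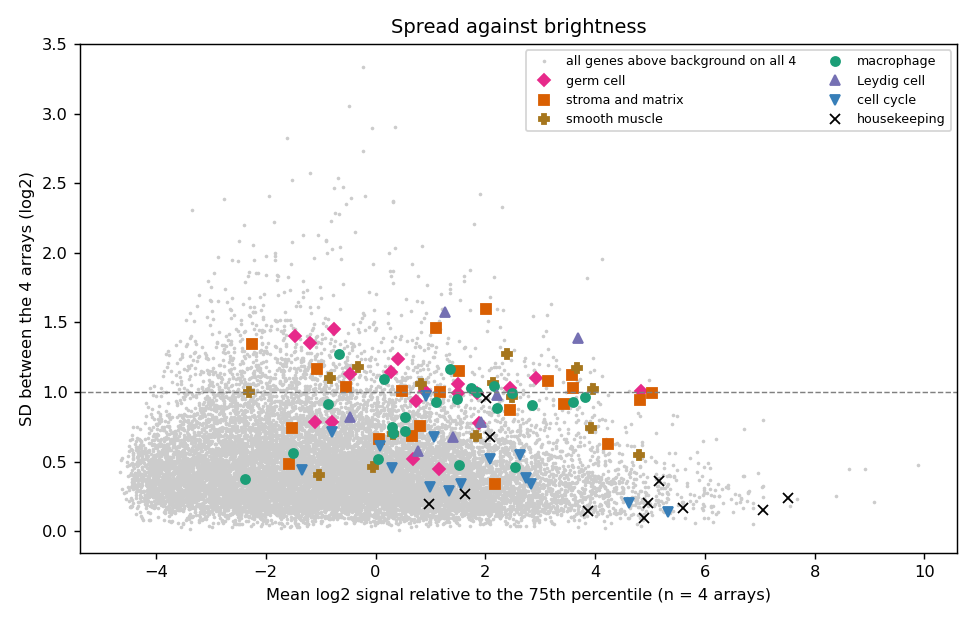
SD between the 4 wild type arrays (y axis, log2) against mean log2 signal relative to the 75th percentile (x axis) for 16556 genes above background on all 4 arrays (grey) and members of 7 lists (coloured symbols); the dashed line is an SD of 1. Cell cycle and housekeeping members stay below the line, as most genes do, and 1104 genes (6.67%) lie above it.

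An SD over 1 between arrays was found for 1104 of 16556 genes above background on all 4 arrays (6.67%). Replicates 1 and 2 were the highest pair for 432 of them (39.1%) and replicates 3 and 4 for 292 (26.4%), against 19.8% and 29.8% of all genes above background on all 4. The other 4 pairs had between 5.43% and 11.0% each, against 7.82% to 17.3% of all genes above background on all 4. S100a9, a calcium-binding protein of neutrophils, had the largest SD of all, at 3.37, 1.79, -3.62 and -2.43, a 127-fold range. Mpo, the myeloperoxidase of neutrophil granules, stood at 3.45, 0.26, -2.23 and -2.37. Stfa1, a stefin protease inhibitor of neutrophils, stood at 1.37, 0.21, -4.27 and -3.78. Stfa2, Csta1 and Cstdc5, relatives of Stfa1 whose probes may share transcripts, were also among the 15 most variable genes. All 6 were highest on replicate 1, then replicate 2, and both other arrays were lower. A second group was high on replicate 1 alone. Gpr139, a G-protein coupled receptor, stood at 4.07, -2.46, -1.87 and -1.67. Ntpcr, a nucleoside triphosphatase, stood at 4.23, -1.02, -1.35 and -2.13. Socs1, a suppressor of cytokine signalling, stood at 3.39, -1.02, -1.64 and -1.53. Rps6ka4, Cfap410 and Rragd had the same array apart, though another kept probe of Rragd was lowest on that array. Without replicate 1 the SD of Gpr139 was 0.41 and that of Cfap410 0.03. Dach1, a transcriptional cofactor, stood at 1.02, 4.19, -1.72 and -2.07. Hoxc10, a homeobox gene of the posterior body, stood at -1.25, 3.11, -1.98 and -1.66. Lrrc66 stood at -4.36, 0.76, -3.26 and -4.15, and all 3 were highest on replicate 2. A second kept probe was dimmer, averaging -3.79 for Hoxc10, -3.65 for Dach1, -3.78 for Csta1 and -1.89 for Cfap410. With the normexp correction 303 genes had an SD over 1.

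**Figure D5:**
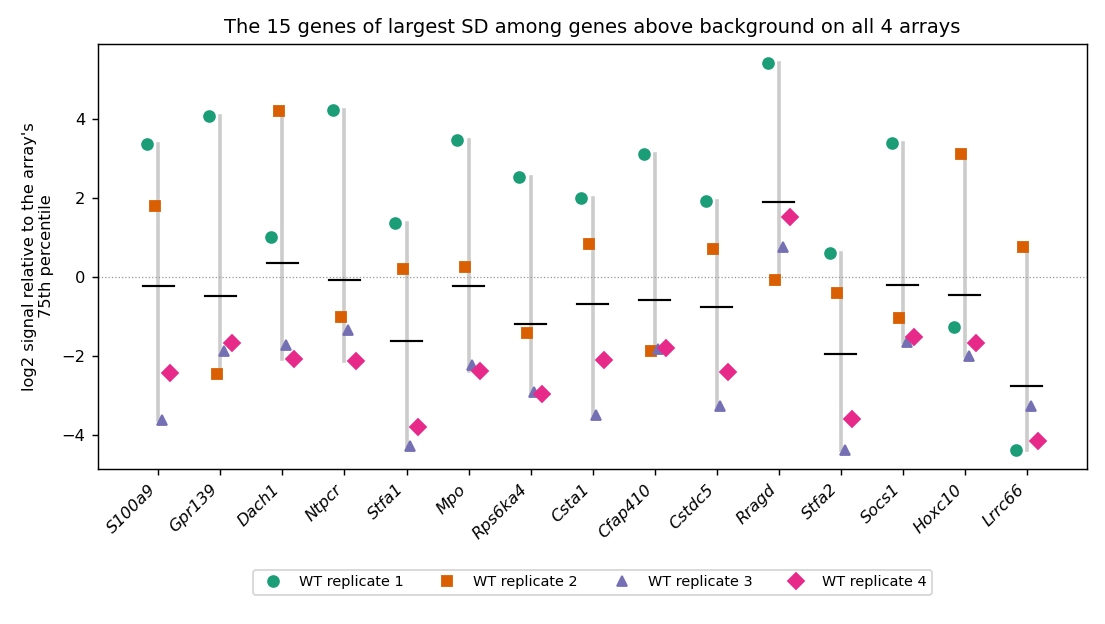
Log2 signal minus the 75th percentile of the array (y axis) for the 15 genes of largest SD (x axis, in order of SD) on the 4 wild type arrays, with 1 symbol per array, a grey bar for the range and a black line for the mean. Replicate 1 or replicate 2 is the highest array in all 15, as in S100a9 (3.37 on replicate 1) and Hoxc10 (3.11 on replicate 2). Of genes with an SD over 1 and above background on all 4 arrays, replicate 1 is highest for 37.0% and replicate 2 for 28.4%. The 15 are not all separate, since the probes of Stfa1 and its relatives may share transcripts.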

How the data were processed

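Total RNA of Thy1+ testis cells was amplified with the Ovation Pico WTA System and labelled with Cy3 for one-colour Agilent arrays, per the labels' protocols. The deposited files hold spot intensities on a linear scale, which Agilent's Feature Extraction software (12.0.0.7, per the file headers) had background-subtracted and detrended, with median spot and background intensities and flags as other columns. The deposited value table equalled the processed intensity on 100% of spots (column medians 67.2 to 144, linear, not centred).

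Control spots and outlier-flagged spots (76 to 94 per array) were left out. No spot was saturated. The signal was scaled as log2 minus each array's 75th percentile, and spots of a probe were averaged. A probe with no value on an array was dropped. Probes were named by RefSeq accession in a GRCm38.p6 table, since the files carry no symbols: of 41174, 28223 matched 1 gene, 0 several and 12951 none. Probes that 2 or more of the 4 arrays flagged as well above background were kept, and the probe of highest mean stood for its gene (6400 genes had several). The slide was tested with limma 3.58.1 in R 4.3.3, on simulated data first. The number of arrays limits the precision.

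The members, lists and rules were chosen with earlier results of these data known. The rule named 134 genes: 9 fixed ones, the 3 brightest and 3 most variable of each list, the 12 brightest, 15 most variable and 8 steadiest of all genes without provisional symbols, and the 4 of smallest slide p in each direction. Of these, 57 had several kept probes, and for 5 (Itgam, Junb, Dcaf12l2, Rragd and Ube2d3) another probe was lowest where the chosen one was highest. Other members named in the text were chosen after their values were seen. Alternatives were quantile normalization, normexp (offset 50, on median signals, since the mean spot signal is not a column used here), the array median, other filters, the mean over probes, other SD thresholds, position as a block (added later), and each replicate left out.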

Additional observations from a re-analysis of the deposited data

Results flagged for a closer look

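In 6 of 152 genes, lists and array measures examined, the gap between 1 array and the nearest other exceeded the critical value of Dixon's test. The gap was taken as a part of the range of the 4 arrays. In unselected, independent groups chance exceeds that value in about 1 of 20, or 7.6 of 152. Many of the 152 were picked from these same data and the lists share genes with them. That rate therefore does not apply here, and nothing is concluded from the count of 6. All 6 were genes named for a large SD in these same data. On WT replicate 1 the high value was 3.44 for Hprt, a purine salvage enzyme, 4.07 for Gpr139, 3.12 for Cfap410 and 3.39 for Socs1. On WT replicate 2 it was 3.11 for Hoxc10 and -0.24 for Lum, the matrix proteoglycan lumican. In all 6 the single array was the highest. Over all genes above background on the 4 arrays 4.96% exceeded the critical value, and 7.43% of those with an SD over 1, of which 47 had replicate 1 and 22 replicate 2 as the single high array.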

How the results depend on the processing

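No paired analysis was possible because the replicate numbers pair nothing within the 1 group described. Position on the slide pairs the arrays across slides instead, and with it as a block (added after the data were seen) the slide calls were again 0. The count of genes with an SD over 1 (1104) was 303 with normexp and 1688 with no filter on dim probes, and it was 6242 at an SD over 0.5 and 175 at an SD over 1.5. It ranged from 965 to 1363 when 1 replicate was left out. The slide calls (0) ranged from 0 to 312 then, and were 0 under the other 6 settings. Normexp moved the housekeeping median SD to 0.39. The median percentile moved to 53.0 for the erythroid list when probes had to be above background on all 4 arrays, and to 35.7 for the endothelial list with no filter. With the mean over probes it was 88.2 for the cell cycle and 98.6 for the housekeeping list. With 1 replicate left out, the median SD ranged from 0.46 to 1.18 for stroma and 0.53 to 1.16 for smooth muscle, and the erythroid percentile from 29.5 to 47.5. The other list percentiles and list SDs moved by less than the spread between arrays under every setting. Of the single-gene values and centred list means, 82 moved past a limit set from that spread with normexp and 250 did not. With the array median 118 did and 214 did not, and with the mean over probes 39 did and 293 did not. Without replicate 2, 22 did and 288 did not. The cause of these moves was not tested. The array median in place of the 75th percentile shifts all genes alike. Signal over background limits the values of Ret, Lhcgr, Cd163, Msln and Lrrn4, each not well above background on 1 array.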

Other observations

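After the neutrophil genes were seen among the most variable, a list of 16 genes of neutrophils and their precursors was put together, so its values are a description only. Of these 14 were measured and 9 were well above background on all 4 arrays. Centred means were 1.82, 0.72, -1.61 and -0.94 on WT replicates 1 to 4, a 10.7-fold range. On replicate 1, 11 members were highest, against 27.6% of all genes and 37.0% of genes with an SD over 1 and above background on all 4 arrays. Gfi1, a transcriptional repressor of granulocyte development, stood at 1.67, -0.04, -3.64 and -1.27. Ngp, a neutrophil granule protein, stood at -0.57, -1.88, -3.26 and -5.08, not well above background on 1 array. Elane and Prtn3, serine proteases of early granules, stood at -2.36, -3.52, -3.47 and -3.25 and at -2.09, -2.61, -2.08 and -1.99, with SDs of 0.54 and 0.28 against 2.73 for Mpo. Mmp9, a matrix metalloproteinase of mature neutrophils and other cells, was higher on replicates 3 and 4, at -2.81, -2.23, -1.34 and -0.96.

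The Hoxc genes, homeobox genes of the posterior body, were looked at for the same reason. Hoxc8 stood at -3.39, 1.40, -2.30 and -3.12, Hoxc9 at -2.04, 2.24, -1.77 and -2.01 and Hoxc10 at -1.25, 3.11, -1.98 and -1.66. Each was higher on replicate 2 than on any other array. Of the 9 genes listed 5 were measured, without Hoxc4, Hoxc5, Hoxc6 and Hoxc11, and 4 were highest on replicate 2, against 18.9% of all genes. The genes were picked after Hoxc10 was seen among the most variable, so this count is a description only. The stroma, smooth muscle, and duct and mesothelium lists had their highest centred means on that replicate too, and a link was not tested. Hoxc12 and Hoxc13 were dim on all 4 arrays, at -4.28, -4.87, -4.66 and -5.21 and -4.44, -3.49, -4.64 and -5.08, and well above background on 2 of them.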
